A study of Mus musculus with 4 samples.

Results

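The Dlk1-Dio3 imprinted locus was examined in single mouse muscle cells through 5 genes: the noncoding RNAs Meg3, Rian and Mirg and the protein-coding genes Dlk1 and Rtl1. The members were chosen by gene symbol, and all 5 were found among the 32285 genes of the files. The rule that chose them also fixed the comparisons described here and was written with earlier results of these data known, so the values below are descriptions and no test was run on them. All samples belong to 1 group: muscle stem cells from skeletal muscle of mice of genotype MyoD-KI, grown for 5 days in a serum-rich growth medium and sorted for high MyoD-tdTomato signal. Myod1 encodes MyoD, which drives cells into the muscle lineage, and its reporter tdTomato fluoresces red. The labels give neither the age and sex of the mice nor the number of animals behind the culture, and cells with low signal were not analysed here.

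In this imprinted domain the parental copies are used differently. Dlk1 and Rtl1 are known to be expressed from the paternal copy, and Meg3, Rian, Mirg and many small RNAs from the maternal copy. Dlk1 is a transmembrane protein related to Notch ligands, and Rtl1 is a protein derived from a retrotransposon. Meg3 is a long noncoding RNA found mainly in the nucleus, Rian carries a cluster of C/D small nucleolar RNAs, and Mirg is a host transcript of microRNAs. In skeletal muscle the locus is known for Dlk1 and Rtl1 in the callipyge form of muscle overgrowth in sheep.

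In GENCODE M21 on GRCm38 the members lie on chromosome 12. Dlk1 spans 109452823 to 109463336 on the plus strand, Meg3 spans 109541001 to 109571726 on the plus strand, and Rtl1 spans 109589193 to 109600330 on the minus strand. Rian follows at 109603940 to 109661716 and Mirg at 109729764 to 109749460, both on the plus strand. A further noncoding gene, B830012L14Rik, lies between the last pair at 109695586 to 109702587 on the plus strand. It is no member, and its values are given because it falls inside the same interval. The values are gene totals that do not tell exons from introns. Small RNAs overlap Rtl1 on the opposite strand, and the use of strand in counting is not given in the sources used here, so reads from an antisense precursor cannot be told apart from Rtl1 in these totals.

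RefSeq's table held 60 microRNA genes with 112 mature products between the start of Dlk1 and the end of Mirg. Of these genes, 2 lay within Meg3, 6 opposite Rtl1, 3 within Rian, 26 between Rian and Mirg and 14 within Mirg. The counts analysed here come from polyadenylated transcripts and hold no value for a mature microRNA. The sequences are shown as examples of the microRNAs annotated in this interval, not all of them within a described transcript. They run 5′ to 3′ with the seed, bases 2 to 8, in capitals.
miR-770-3p (within Meg3): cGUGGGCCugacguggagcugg
miR-433-3p (opposite Rtl1): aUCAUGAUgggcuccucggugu
miR-127-3p (opposite Rtl1): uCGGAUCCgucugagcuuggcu
miR-434-3p (opposite Rtl1): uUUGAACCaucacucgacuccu
miR-370-3p (within Rian): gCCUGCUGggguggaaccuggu
miR-379-3p (between Rian and Mirg): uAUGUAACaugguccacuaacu
miR-411-3p (between Rian and Mirg): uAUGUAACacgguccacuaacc
miR-410-3p (within Mirg): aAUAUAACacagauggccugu
The seed was shared by miR-379-3p and miR-411-3p. The 112 products had 102 different seeds, of which 10 occurred in 2 products each.

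The promoters of Meg3 and Rian are shown because these transcripts were detected in the same cells. The windows are RefSeq's on GRCm38.p6, from 250 bases before to 50 bases after the start, on the plus strand: chr12:109540746-109541045 for the upstream start of Meg3 and chr12:109603695-109603994 for Rian. Capitals mark matches on either strand to TGACGTCA (the cyclic AMP response element), to CCAAT (the CCAAT box), to TATAAA (the TATA box) or to the MEF2 motif.
Meg3: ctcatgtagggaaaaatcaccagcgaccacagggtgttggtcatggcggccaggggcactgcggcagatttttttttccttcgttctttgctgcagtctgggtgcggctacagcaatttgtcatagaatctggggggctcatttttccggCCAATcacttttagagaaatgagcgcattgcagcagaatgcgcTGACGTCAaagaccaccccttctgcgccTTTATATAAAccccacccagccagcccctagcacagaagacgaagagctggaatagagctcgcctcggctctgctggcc
Rian: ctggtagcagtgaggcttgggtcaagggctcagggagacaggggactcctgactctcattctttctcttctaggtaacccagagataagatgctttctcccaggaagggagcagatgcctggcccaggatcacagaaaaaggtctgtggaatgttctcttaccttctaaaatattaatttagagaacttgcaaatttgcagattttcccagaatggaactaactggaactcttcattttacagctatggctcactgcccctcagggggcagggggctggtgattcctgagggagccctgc
In the Meg3 window CCAAT began at base -100, TGACGTCA at -57 and TATAAA at -25, where it overlapped a match on the other strand that began at -29. The Rian window held none of these 4 motifs. TGACGTCA was present in 1.79% of 32851 promoter windows, CCAAT in 37.4%, TATAAA in 13.6% and the MEF2 motif in 0.557%. The E-box CANNTG, left in lower case, was found 1 time in the Rian window, was not found in the Meg3 window, and was present in 72.3% of all windows. The Meg3 window had 13 CpG dinucleotides, the Rian window 0 and the median window 7.

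Each file held between 62627341 and 68898900 unique molecular identifiers (UMIs, tags that each mark 1 captured molecule), and together the files had 5985 different barcodes, where the labels give about 10000 cells loaded. Every pair of files shared 99.9% of its barcodes. The counts of a pair differed less than independent draws would, from which 13.3% to 14.3% of molecules were estimated to be shared. Molecules themselves were not matched between files. The 4 labelled replicates were therefore read as libraries made again from the same cells, so that n = 1 and the spread over files is technical. Kept cells were the 5481 barcodes seen in every file whose mean over the files reached 1000 genes and stayed below 10% of UMIs from mitochondrial genes. Their median depth was 44195 UMIs summed over the files. Levels are in CPM, the UMIs of the gene per 1000000 UMIs of the cells. The kept cells had 507 CPM of Myod1 and 1803 CPM of Myog, the transcription factor that marks entry into muscle differentiation. Intervals are exact 95% intervals for counting error at the mean count of 1 file, or over cells for shares. All leave out any variation between animals and cultures. Those of levels and ratios also leave out the variation between cells, so they do not measure how far a level rests on few cells.

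Among the maternally expressed RNAs, Meg3 had 99.3, 99.3, 102 and 99.8 CPM in replicates 1 to 4, and 99.99 CPM over the files (interval 97.6 to 102). Rian had 28.2, 26.9, 27.1 and 26.4 CPM, and Mirg had 5.48, 4.91, 5.78 and 5.24 CPM. Each of the 3 RNAs was thus measured at nearly the same level in every file. The paternally expressed genes had few UMIs: Dlk1 had 1.18, 0.941, 0.875 and 1.02 CPM and Rtl1 had 1.17, 1.06, 1.13 and 1.20 CPM. For Dlk1, 10 cells held 54.3% of its 265 UMIs, against 12.1% of 26372 UMIs for Meg3, so the Dlk1 level rests on few cells. Levels of different genes are given side by side and not ranked, since the gene lengths differ and the treatment of intronic reads is not given in the sources used here.

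In most cells no UMI of any member was detected. For shares, 20000 UMIs were drawn at random from every cell, and 224 shallower cells were left out. At that equal depth Meg3 was detected in 832 of 5257 cells (15.8%, interval 14.8% to 16.8%), Rian in 8.96%, Mirg in 4.13%, Rtl1 in 1.33% and Dlk1 in 0.932%. Without thinning the shares were 22.4%, 13.2%, 5.98%, 2.21% and 1.48%, in the same order of genes. Of the cells with a Meg3 UMI in 1 file, 70.4% on average had one in another file, and the figure was 65.9% for Rian, 60.1% for Mirg, 47.3% for Dlk1 and 42.4% for Rtl1.

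Cells were then grouped by Myog into 5 bins (under 50, 50 to under 500, 500 to under 1500, 1500 to under 3000, and 3000 CPM or more). Each bin was divided into cycling cells, with Mki67 plus Top2a of at least 75 CPM, and non-cycling cells. Mki67 and Top2a are markers of proliferation. In non-cycling cells Meg3 had 25.1 CPM at the lowest Myog, then 26.7, 49.2, 250 and 226 CPM with rising Myog. In cycling cells the corresponding Meg3 levels were 11.4, 16.1, 35.2, 108 and 134 CPM. Over the files the groups of the upper 2 bins ranged from 102 to 258 CPM and those of the lower 3 from 10.6 to 54.2 CPM, so these ranges did not overlap. The Meg3 level in CPM was lower in cycling than in non-cycling cells of every bin. At 1500 to under 3000 CPM of Myog the share of cells with Meg3 at equal depth was not lower. It was 20.9% in cycling (interval 16.2% to 26.1%) and 19.02% in non-cycling cells, and 10 cells held 69.4% of the Meg3 UMIs of that cycling group. The highest group was that of non-cycling cells with 1500 to under 3000 CPM of Myog (interval 238 to 263), above that with 3000 CPM or more (218 to 234). In the former, 10 cells held 43.5% of the Meg3 UMIs, against 19.2% in the latter, and the share of cells with Meg3 at equal depth ran the other way, at 19.02% (15.6% to 22.9%) against 22.2% (20.01% to 24.5%). Neighbours in the order of levels whose intervals overlapped were the non-cycling groups of the lowest 2 bins (20.4 to 30.5 and 22.3 to 31.8), and the cycling group of the middle bin (29.6 to 41.6) with the higher of these and with the non-cycling group of its own bin (41.2 to 58.3).

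**Figure D1:**
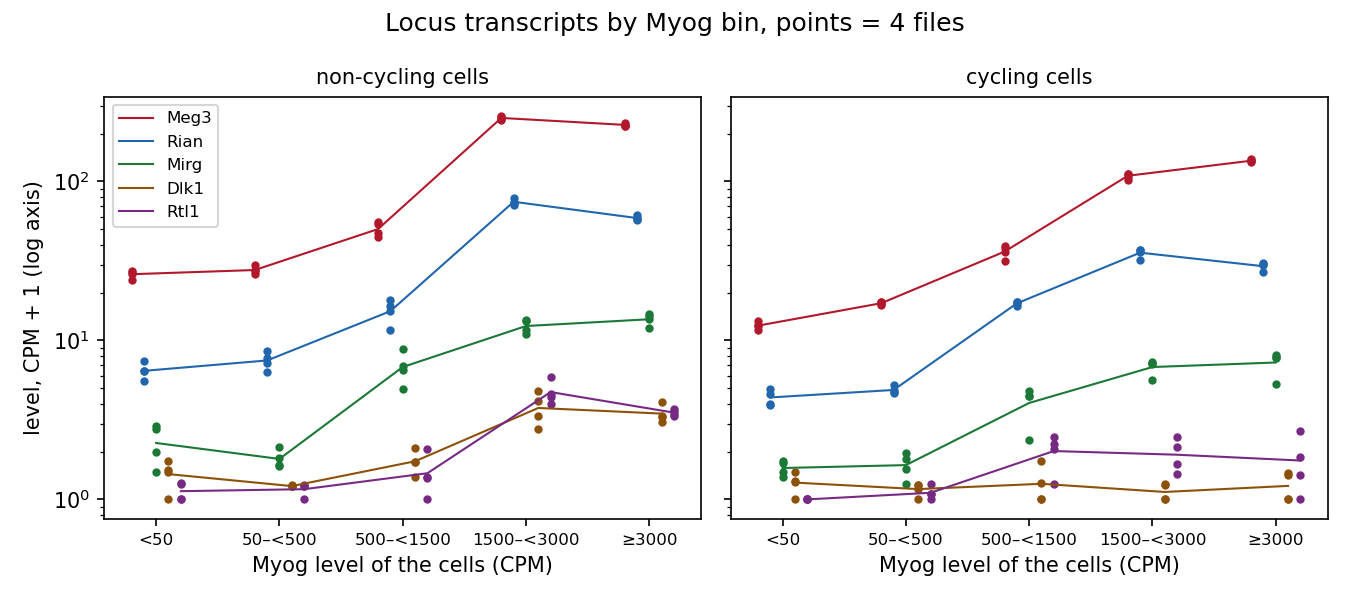
Levels of the 5 members (CPM plus 1, log axis) in 5 bins of Myog level, for non-cycling cells on the left and cycling cells on the right. Points are the 4 files and lines join the summed values. Meg3, Rian and Mirg are highest in the upper 2 bins, with Meg3 at 226 to 250 CPM in non-cycling cells.

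Rian and Mirg followed a similar course. Rian had 5.43, 6.48, 14.3, 73.5 and 57.9 CPM in the non-cycling bins, and Mirg had 1.26, 0.797, 5.80, 11.3 and 12.6 CPM. From the lowest to the highest Myog bin, non-cycling cells differed by a log2 ratio of CPM plus 1 of 3.12 for Meg3, 3.19 for Rian, 2.59 for Mirg, 1.64 for Rtl1 (interval 0.62 to 1.83) and 1.26 for Dlk1 (0.27 to 1.77). By their summed values all 5 members were past the 2-fold limit, with the same direction in every file, where 9.56% of 11935 genes were 2-fold higher and 21.9% were 2-fold lower. The lower side held 2 UMIs of Rtl1, 7 of Dlk1, 20 of Mirg and 86 of Rian, each below the minimum of UMIs needed over both sides. These genes thus entered the comparison through the higher side, where Meg3 had 397 UMIs on the lower side. The count of members past the limit is therefore a description and is not weighed against the share of all genes. The intervals of Rtl1 and Dlk1 reach below the 2-fold limit of 1.

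In the highest Myog bin, cycling cells had a lower level of each member in CPM. In these 190 cycling cells, 10 cells held 90.0% of the UMIs of Meg3, 87.4% for Rian and 96.6% for Mirg. The levels thus rest on few cells. At equal depth Meg3 was detected in 16.8% of cycling cells (11.7% to 23.1%) and 22.2% of non-cycling cells (20.01% to 24.5%). For Rian the shares were 10.3% (6.33% to 15.7%) and 14.96% (13.1% to 16.98%), so both pairs of intervals overlapped. Between cycling and non-cycling cells of the highest Myog bin, the log2 ratio was -0.75 for Meg3, -1.01 for Rian and -0.90 for Mirg. The cycling side held 2 UMIs of Dlk1 (0.216 against 2.47 CPM) and 7 of Rtl1 (0.756 against 2.51 CPM). Rian, Dlk1 and Rtl1 were past the 2-fold limit, and 2.74% of 11415 genes were 2-fold lower in cycling cells.

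The higher level at high Myog came with more positive cells and with more molecules in each. At equal depth, 5.37%, 5.40% and 5.81% of cells in the lower 3 Myog bins had at least 2 Meg3 UMIs, against 14.6% and 16.04% in the upper 2. The median number of Meg3 UMIs in these cells was 3.5, 3 and 6.5 in the lower bins and 12 and 15 in the upper ones. Rtl1 was detected in 0 of 1155 cells in the lowest bin, where the exact interval reaches 0.319%, and in 3.16% of cells in the highest.

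Over the 10 groups of cells, the genes whose log2(CPM + 1) ran most like that of Meg3 were Sptbn1 (Pearson r 0.983), Trim55 (0.980), Rian (0.980) and Ckb (0.979), among 5990 genes of at least 20 CPM. Sptbn1 encodes a spectrin of the membrane skeleton, Trim55 a ubiquitin ligase of the sarcomere and Ckb the brain-type creatine kinase. A correlation of 0.95 or more was reached by 118 genes, and the groups share their libraries and the Myog ordering. The value was 0.956 for Mirg, 0.898 for Rtl1 and 0.680 for Dlk1. Their mean levels over the groups were 4.81, 0.977 and 0.764 CPM, below the limit of 20 CPM. They were therefore not ranked, and their values are not comparable with those of the ranked genes.

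Within the 1854 non-cycling cells with Myog of at least 1500 CPM, called Myog-high cells below, the members were unevenly spread. Meg3 had 0 UMIs in 1351 of these cells (72.9%), 1 UMI in 142 and at least 2 in 361. The highest cell of all had 383 Meg3 UMIs. The 93 cells with the most UMIs of a gene, 5% of the Myog-high cells, held 72.0% of the UMIs of Meg3, 77.8% of those of Rian and 81.0% of those of Mirg. For the 655 genes with at least as many UMIs as Meg3, the median of this share was 12.7%, and Meg3 had the highest. Rian ranked 1 of 2304 and Mirg 3 of 6575 such genes. The imprinted genes H19 and Igf2 had 13.6% and 16.5% of their UMIs in their own top 93 cells. Of the 93 cells with the most Meg3 UMIs, 73 were also among the 93 highest for Rian (78.5% of each list), 64 among those for B830012L14Rik (68.8%) and 63 among those for Mirg (67.7%).

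**Figure D2:**
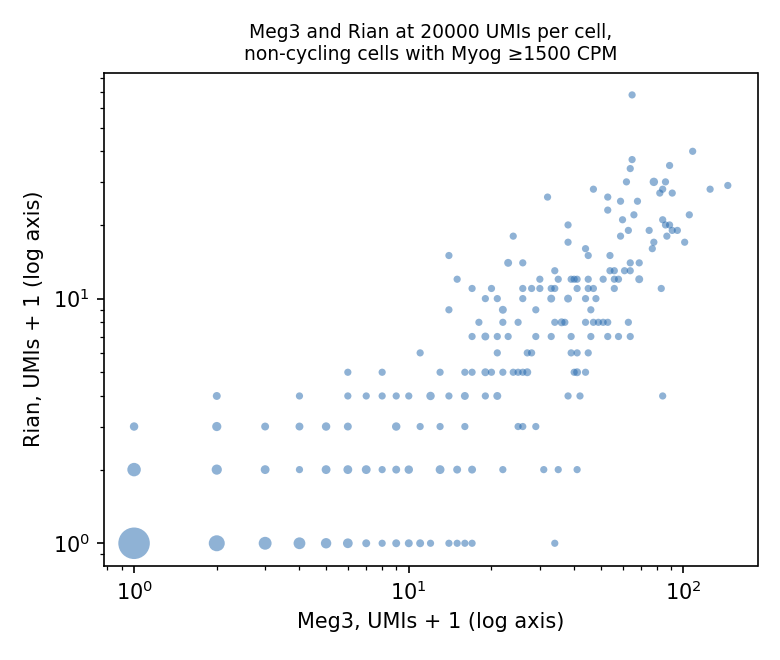
Meg3 and Rian UMIs per cell (plus 1, log axes) in Myog-high cells at 20000 UMIs per cell, with the area of a point growing with the number of cells at that position. Most cells sit at 0 for both genes, and of the 100 cells with 32 or more Meg3 UMIs, 99 had Rian.

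Detection of the maternally expressed RNAs was more frequent in Myog-high cells with more muscle gene expression. The cells were ranked by summed CPM of Acta1 (skeletal muscle actin), Myh3 (embryonic myosin heavy chain) and Ckm (muscle creatine kinase) and divided into 5 stage bins of equal size. From the lowest to the highest stage bin, Meg3 was detected at equal depth in 9.66%, 18.99%, 14.8%, 26.0% and 36.9% of cells. Rian was detected in 5.11%, 8.10%, 10.99%, 18.6% and 30.6%, and Mirg in 0.852%, 3.63%, 5.77%, 12.1% and 18.0%. For Meg3 the interval of the lowest stage bin (6.78% to 13.2%) lay below those of the fourth (21.6% to 30.8%) and highest (31.9% to 42.1%). The Meg3 level was 27.5 CPM (24.8 to 30.7 over the files) in the lowest stage bin and 568 CPM (557 to 586) in the highest. Median Myog was 3170 CPM in the lowest stage bin and 4114 CPM in the highest, and median depth was 36269 and 49229 UMIs. The shares, unlike the levels, are at equal depth.

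**Figure D3:**
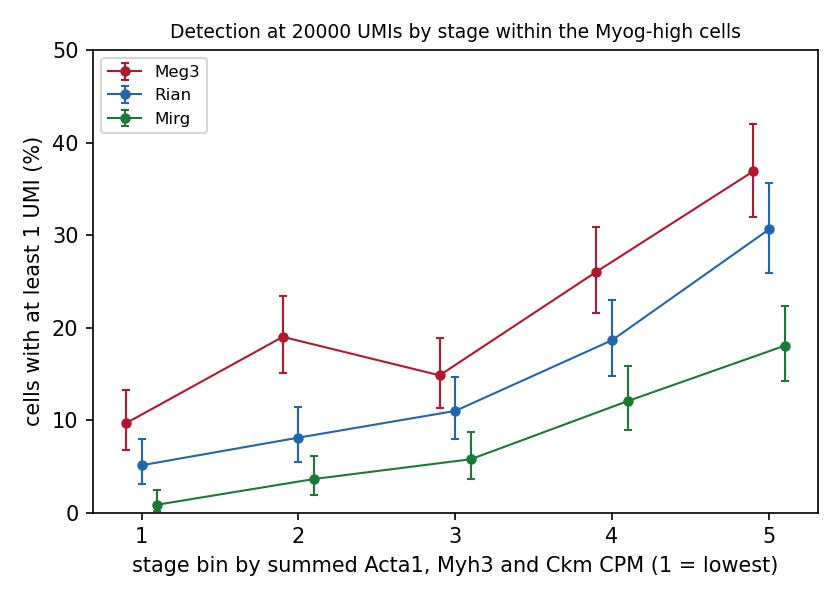
Share of Myog-high cells with at least 1 UMI of Meg3, Rian or Mirg at 20000 UMIs per cell, by stage bin of the summed Acta1, Myh3 and Ckm level. Bars are exact 95% binomial intervals, and Meg3 ranges from 9.66% in the lowest stage bin to 36.9% in the highest.

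Rian was detected more often in cells with Meg3 than without in every Myog bin. At equal depth, Rian was found in 20.9%, 20.1%, 33.9%, 52.4% and 58.2% of the cells with Meg3, from the lowest to the highest bin. In cells without Meg3 the share was 3.02%, 2.79%, 2.84%, 3.01% and 2.35%. The intervals with and without Meg3 did not overlap in any bin. Weighted over the bins by their cells, Rian was 34.4 percentage points more frequent with Meg3 than without (interval 31.3 to 37.8). The weighted difference was 26.1 points for Mirg by Rian, 17.3 points for Mirg by Meg3 and 20.7 points for B830012L14Rik by Meg3.

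**Figure D4:**
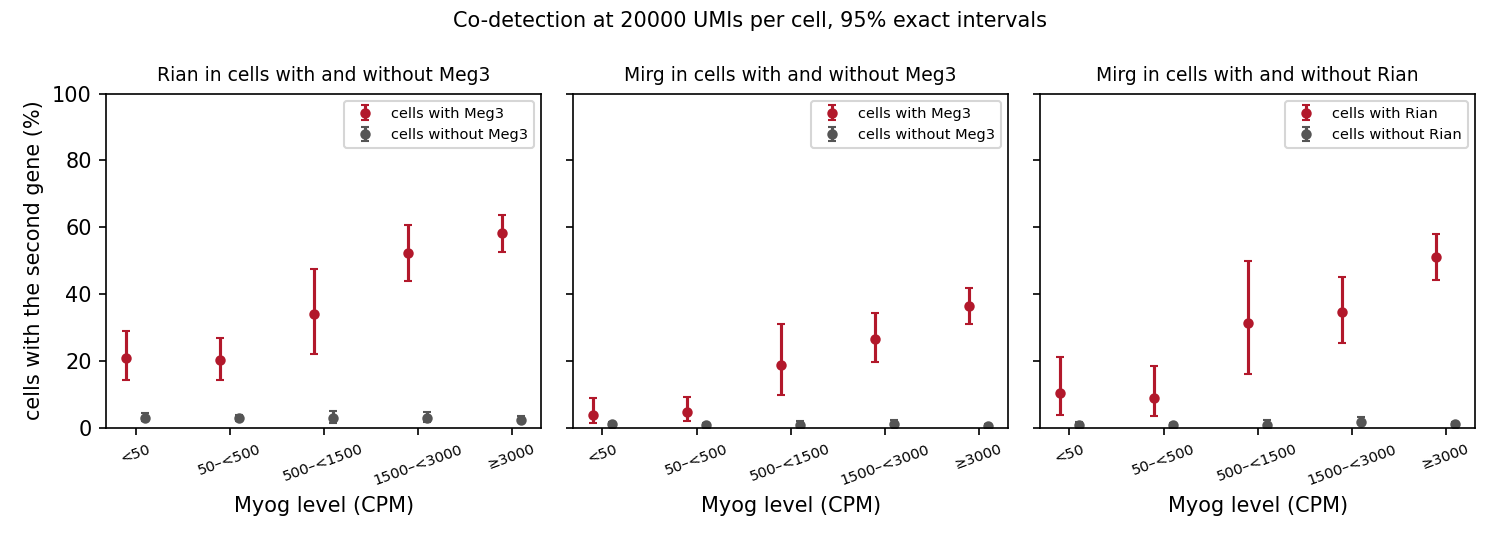
Share of cells with the second gene among cells with the first (red) and without it (grey), in 5 bins of Myog level at 20000 UMIs per cell. Bars are exact 95% binomial intervals. Rian was found in 20.1% to 58.2% of cells with Meg3 and in 2.35% to 3.02% of cells without.

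The paternally expressed genes differed from each other in this respect. Rtl1 was found in 67 cells with Meg3 and in 3 without, all 3 of them in the highest Myog bin, and the weighted difference was 6.31 points (4.99 to 8.30). Dlk1 was found in 21 cells with Meg3 and in 28 without, and the weighted difference was 1.55 points (0.766 to 3.19). In the Myog-high cells before thinning, 58 of 59 cells with at least 2 Rtl1 UMIs also had at least 2 Meg3 UMIs, as did 147 of 148 for Mirg, 241 of 254 for Rian and 16 of 27 for Dlk1. Of all Myog-high cells, 19.5% had at least 2 Meg3 UMIs.

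Co-detection also followed the number of Meg3 molecules. Among Myog-high cells at equal depth, Rian was found in 2.75% of cells with 0 Meg3 UMIs, 17.0% with 1, 32.7% with 2 to 7, 87.9% with 8 to 31 and 99.0% with 32 or more. The share of cells with Mirg was 0.705%, 1.06%, 13.9%, 48.4% and 78.0% in the same classes, and that with Rtl1 was 0.211%, 2.13%, 2.97%, 13.2% and 41.0%. In cells with under 500 CPM of Myog, Rian was found in 2.90% with 0 Meg3 UMIs in 5.52% with 1 and in 31.7% with 2 to 7. Free RNA in droplets can give single UMIs in cells that do not express a gene. The sort holds no cell type known to lack these RNAs, so the share in cells with 0 Meg3 is the lowest reference here, and the part of free RNA in cells with 1 UMI was not tested. Across the 350 Myog-high cells at equal depth that had at least 2 Meg3 UMIs before thinning, Meg3 and Rian levels had a Pearson r of 0.85, Meg3 and Mirg of 0.64, Meg3 and Rtl1 of 0.45, Meg3 and Dlk1 of 0.13 and Meg3 and Malat1, an abundant nuclear RNA, of 0.03. These cells share their libraries and depth.

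Genes were then compared between the 361 Myog-high cells with at least 2 Meg3 UMIs and the 1351 with 0. Just inside this threshold were 65 cells with 2 or 3 UMIs, and just outside it the 142 cells with 1 UMI. A gene was counted when its summed CPM differed at least 2-fold on the CPM plus 1 scale, in the same direction in every file, among 11627 genes with at least 100 UMIs. The 4 members other than Meg3, whose own UMIs chose the cells, were all higher, where 77 genes (0.662%, Meg3 included) were higher and 26 (0.224%) lower. Each of the 4 reached 100 UMIs through the cells with Meg3 alone, so this count is a description. With median-ratio size factors 108 genes were higher and 19 lower. The median log2 ratio over all genes was -0.10.

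Rian had 287 CPM in cells with Meg3 and 1.27 CPM in cells without, with a log2 ratio of 7.14, 7.19, 6.81 and 6.82 in the 4 files and 6.99 over all (interval 6.59 to 7.36). B830012L14Rik had 126 and 0.395 CPM (log2 ratio 6.50), and Mirg had 56.2 and 0.313 CPM (5.45). Rtl1 had 241 UMIs in cells with Meg3 and 5 in cells without, or 13.2 and 0.0823 CPM (3.71, interval 3.26 to 3.85). Dlk1 had 8.09 and 1.07 CPM (2.13, interval 1.54 to 2.66). Outside the locus the next highest gene, Ankrd2, had a ratio of 1.85 (interval 1.37 to 2.32), which overlapped that of Dlk1. In cells with 1500 to under 3000 CPM of Myog alone the order turned, with 2.54 for Ankrd2 and 1.05 for Dlk1.

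Ankrd2, an ankyrin repeat protein of stretched muscle, was followed by 2310043M15Rik (1.71), Capn3 (1.53), the muscle calpain, Fabp3 (1.52), the heart and muscle fatty acid binding protein, and Epb41l4a (log2 ratio 1.4994). Fabp3 had 142 CPM with Meg3 and 48.6 without. Lowest were C77080 (-2.35), Gm45509 and Tmem171 (both -1.35), Gm13842 (-1.34), Colec12 (-1.32), Arl4c (-1.28), Adcy7 (-1.24), Igfbp5 (-1.21), Pcdh15 (-1.16) and Micall2 (-1.15). Igfbp5, a binding protein of insulin-like growth factors, had 12.2 CPM with Meg3 and 29.6 without. Gm13842 had 1 UMI against 101 (interval of the ratio -1.42 to -0.39).

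**Figure D5:**
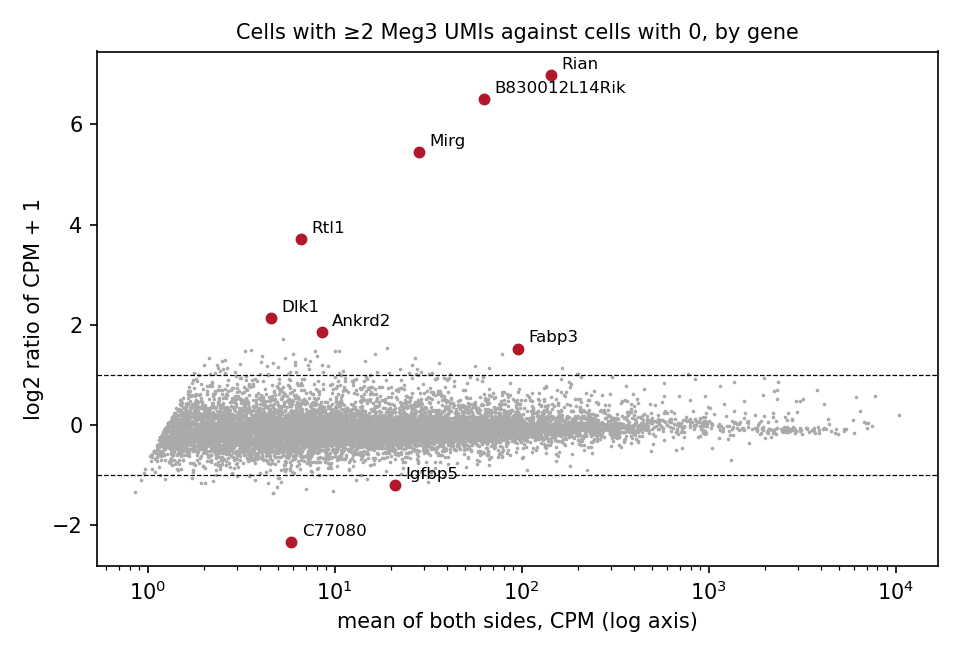
Log2 ratio of CPM plus 1 between Myog-high cells with at least 2 Meg3 UMIs and cells with 0, against the mean CPM of both sides (log axis), for each gene measured except Meg3. Dashed lines mark the 2-fold limit. Rian, B830012L14Rik and Mirg lie at 5.45 to 6.99, above every other gene.

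The cells of both sides differed in stage. Of 11 markers of differentiating myocytes, 10 were higher in cells with Meg3, and their summed level was 44837 CPM against 33216 CPM. When the cells with 0 Meg3 were weighted to the same distribution over the stage bins, 16 genes, Meg3 included, were higher and 7 lower in place of 77 and 26. The locus genes then had log2 ratios of 7.05 for Rian, 6.50 for B830012L14Rik, 5.45 for Mirg, 3.62 for Rtl1 and 1.72 for Dlk1, while Fabp3 moved to 0.58, Capn3 to 0.74 and Igfbp5 to -0.55. Epb41l4a then had 1.42, Ankrd2 1.34 and C77080 -2.23. The count of lower genes was 43, 54 and 49 without replicates 1, 2 and 3 and 29 without replicate 4, against 26 with all, so that count is loosely fixed.

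Median depth was 48450 UMIs with Meg3 and 42907 without, median Myog was 4203 and 4158 CPM, and the median mitochondrial share was 4.004% and 4.001%. Cells poor in Malat1 (under 1500 CPM) made up 2.77% and 7.40%, and without them 68 genes were higher and 27 lower. Summed markers of fibroblasts had 40.6 CPM with Meg3 and 60.1 without (5 of 6 lower or at 0, with Lum at 0 on both sides). Endothelial, immune and Schwann cell markers summed to 0.437 to 2.46 CPM on either side, with Kdr at 0. Markers of pericytes or smooth muscle summed to 2928 and 2712 CPM and tendon markers to 151 and 129 CPM, with Tnmd at 0, and their part in the result was not tested.

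Between the start of Dlk1 and the end of Mirg, the 5 measured genes other than Meg3 were 2-fold higher. Each of these 5 reached the UMI minimum of the comparison through the cells with Meg3 alone, so this count is a description and marks no spatial limit. A further gene of the interval, Gm34081, had too few UMIs to be measured (23 with Meg3 and 11 without, log2 ratio 0.93). Of the 36 measured genes outside that interval of 296.6 kilobases and within 3 megabases of the Meg3 start, 0 were 2-fold higher or lower, a count near the share over all genes (0.662% and 0.224%). They ranged from -0.60 (Exoc3l4) to 0.62 (Ckb) around a median of -0.11. The nearest measured genes were Wdr25 at -0.36, 424 kilobases before Dlk1, and Ppp2r5c at -0.18, 698 kilobases after Mirg. Dio3, the gene that names the far end of the domain, and its antisense RNA Dio3os had 0 UMIs in kept cells, where 3 counts over the summed files would make 0.0114 CPM.

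Imprinted genes of other loci were measured for 27 of 36 listed, and 0 were 2-fold higher or lower, with a median of 0.00. This count, and those of 0 in the lists that follow, are near the share over all genes (0.662% higher and 0.224% lower) and single out no list. The values ran from Mest at -0.90 to Cdkn1c at 0.63, and H19 stood at 0.00 and Igf2 at 0.14. Among 9 measured genes that keep imprints, 0 passed the 2-fold limit, with Zfp57, a zinc finger protein of imprint maintenance, at 0.70 and the methyltransferase Dnmt1 at -0.41. Of 8 genes of the polycomb complex PRC2, 0 passed, from Ezh1 at -0.56 to Rbbp4 at 0.09. These lists had a median of -0.06 and -0.18, beside -0.10 for all genes.

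Of 10 measured nuclear noncoding RNAs outside the locus, 0 passed the 2-fold limit, from Pvt1 at -0.68 to Mir99ahg at 0.38, with Malat1 at 0.19. The 10 host genes of small RNAs elsewhere gave 0, from Snhg8 at -0.37 to Mir22hg at 0.83. Of 4 Mef2 transcription factors, which act in muscle differentiation, 0 passed, with Mef2c at 0.78 (1454 against 846 CPM) and Mef2a at -0.11. TGF-beta and mesenchymal transition genes gave 0 of 12 (Snai2 -0.63 to Tgfb3 0.21), and Notch pathway genes, listed because Dlk1 is related to Notch ligands, 0 of 9 (Notch2 -0.59 to Hey1 0.21).

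Muscle stage genes were the list with the highest median, 0.49 over 20 genes. Among them, 1 passed the 2-fold limit, Myh8 (perinatal myosin heavy chain) at 1.02 with 264 against 130 CPM. Cav3, a caveolin of muscle membranes, stood at 0.96 and Myh3 at 0.93, while Myod1 stood at -0.31. Pax7 and Myf5, the stem or progenitor markers of this list, went different ways, with intervals that included 0. Pax7 stood at -0.33 (interval -0.94 to 0.27) and Myf5 at 0.15 (-0.28 to 0.56). Of the wider list of 8 muscle stem or progenitor markers, which holds both, 1 was higher in cells with Meg3. Their summed level was 57.1 CPM with Meg3 (53.4 to 63.8 over the files) and 72.7 CPM without (68.5 to 75.9).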

How the data were processed

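Droplet single-cell libraries (10x Genomics 3′ chemistry, per the labels' protocols) were deposited by the authors as raw UMI counts per gene and barcode. The file headers name Cell Ranger 7.1.0. The submitters' processing notes name Cell Ranger 3.1.0, mm10 and GRCm39. The build behind the counts, the use of strand and the treatment of intronic reads are not given in the sources used here. Coordinates are those of GENCODE M21 on GRCm38, in which 32158 of 32285 identifiers (99.6%) matched by Ensembl identifier.

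The members, lists and comparisons were chosen with earlier results of these data known. Counts were summed over the 4 files per barcode, except where a file's own value is given. Cells were thinned to 20000 UMIs for shares. Ratios are log2 of CPM plus 1, with at least 100 UMIs over both sides. Shares have Clopper-Pearson intervals, levels Poisson intervals and ratios conditional binomial intervals, all at 95%. A molecule seen in several files is counted more than once in the sums, so a cell with 2 UMIs may hold 1 molecule. No test between cells was run, since the files are 1 set of cells.

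Genes named from the Meg3 comparison are the 10 highest and 10 lowest with the same direction in every file, without Myog, Mki67 and Top2a. The genes most like Meg3 and the ends of each list are named by the same written rule, and 1 of the former is not reported here. Genes named beyond these are marker or list genes chosen after their values were seen. Doublets were not called, and the 5% of cells with the most UMIs were left out in an alternative chosen after seeing the data. The shares by stage bin were also added then. The thinning and ratios were tested on simulated data. Python 3.11.15, numpy 2.4.6, scipy 1.17.1 and pandas 2.3.3 were used.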

Additional observations from a re-analysis of the deposited data

Results flagged for a closer look

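Barcodes that did not pass the cell filters carried more of these RNAs than the kept cells. The 463 barcodes left out had 558 CPM of Meg3, 308 of Rian, 58.8 of Mirg, 11.95 of Rtl1 and 1.84 of Dlk1, each above the 0.919 CPM that 3 counts over the summed files make. The Dlk1 value rests on 6 UMIs, summed over files that share molecules. With mitochondrial UMIs left out of the total, Meg3 stood at 843 CPM in them and at 104 CPM in the kept cells, and Rian at 465 and 28.2 CPM. These barcodes had few genes or a high mitochondrial share, and the cause was not tested.

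Of 80 values compared over the 4 files, 7 had 1 file far from the other three (8.75%, where chance gives about 5%). In Myog-high cells Meg3 had 239 CPM in replicate 3 against 230 to 231 in the others. In cycling cells with 500 to under 1500 CPM of Myog, replicate 4 had 15.4 CPM of Rian and 1.35 of Mirg. Mirg had 4.67 CPM in replicate 1 in cycling cells with 1500 to under 3000 CPM of Myog, and 4.29 CPM in replicate 3 in those with 3000 or more. Rtl1 had 0 CPM in replicate 1 in non-cycling cells with 50 to under 500 CPM of Myog, on 3 UMIs in all. The Mirg log2 ratio of the Meg3 comparison was 5.6 in replicate 1 and 5.39 to 5.40 in the others.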

How the results depend on the processing

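No ratio or difference changed sign under the alternatives run, but the balance of higher and lower genes in the Meg3 comparison turned under 2 of them. No paired analysis was possible because the files hold 1 set of cells in 1 group and no test was run. Member levels moved beyond counting error under other cell filters: with limits of 2000 genes and 5% from mitochondrial genes they were 85.6 (Meg3), 23.5 (Rian), 4.31 (Mirg) and 0.616 CPM (Dlk1), with all barcodes 106 (Meg3), 30.6 (Rian) and 6.004 CPM (Mirg), as means of the cells' own CPM 92.3 (Meg3) and 24.2 (Rian), and without Malat1-poor cells 107 (Meg3) and 29.4 (Rian). Shares followed depth. In the order Meg3, Rian, Mirg, Dlk1, Rtl1 they were 11.8%, 6.65%, 2.68%, 0.568% and 0.532% at 10000 UMIs, 22.4%, 13.2%, 5.98%, 1.48% and 2.21% without thinning, and 9.44%, 4.88%, 1.77%, 0.390% and 0.429% in 1 file at 5000 UMIs. At 10000 UMIs the weighted differences were 14.6 points (Meg3 and Mirg), 19.7 (Rian and Mirg) and 3.33 (Meg3 and Rtl1). With the first gene read in replicates 1 and 2 and the second in replicates 3 and 4, all 5 differences stayed within their intervals, as did all ratios by Myog bin under every alternative run.

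In the Meg3 comparison the 77 higher and 26 lower genes became 35 and 6 with at least 1 Meg3 UMI, 118 and 74 with at least 4, 176 and 196 at 1500 to under 3000 CPM of Myog, 42 and 20 at 3000 CPM or more, and 16 and 7 at equal stage. Cells thinned to 20000 UMIs gave 100 higher and 103 lower, and lower genes numbered 61 with the cells chosen in replicates 1 and 2 and the genes read in 3 and 4. Leaving out 1 replicate gave 69 to 93 higher and 29 to 54 lower genes. Without the 20 cells with the most Meg3 UMIs 57 were higher and 24 lower, and without the 5% deepest cells 76 and 23. The cause of these shifts was not tested. The log2 ratio stayed within 6.54 to 7.26 for Rian, 5.00 to 5.71 for Mirg, 3.23 to 4.23 for Rtl1 and 1.05 to 2.62 for Dlk1 over 17 alternatives.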

Other observations

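The UMIs of Cdkn1c and Fabp3 were also concentrated in few Myog-high cells. The imprinted gene Cdkn1c, a cell cycle inhibitor, had 70.5% of its UMIs in its top 93 cells and ranked 2 of 823 genes with at least as many UMIs, and Fabp3 had 69.9% and ranked 3 of 2190. Of the 93 cells highest for Meg3, 9 were among the 93 highest for Cdkn1c (9.68% of each list) and 18 among those for Fabp3 (19.4%), against 73 for Rian.

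Genes outside the locus that stayed 2-fold higher at equal stage were 1700008O03Rik (1.60), Aqp5 (1.47), Epb41l4a (1.42), Ankrd2 (1.34), Adam2 (1.13), 2310043M15Rik (1.10), Cck (1.07), Pkp1 (1.04), Tubb3 and Grin1 (both 1.00), of which none exceeded 14 CPM. Lower genes included C77080 (-2.23), Gm45509 (-1.55) and Gm13842 (-1.49).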
